A study of Mus musculus with 9 samples.

Results

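Complete conditional deletion of Dot1l was compared with heterozygous deletion in embryonic midbrain dopamine neurons, gene by gene, in 5 RNA-seq libraries of the 8 analysed. The members were chosen by genotype alone: 2 libraries labelled Dot1l(fl/fl) and 3 labelled Dot1l(fl/+), with the 3 Dot1l(+/+) libraries given beside them as the uncut level. A Dot1l(fl/fl) replicate numbered 3 is labelled in the series and was not analysed here. All embryos carried Pitx3-Cre/+, in which Cre is expressed from the locus of Pitx3, a transcription factor of postmitotic midbrain dopamine neurons, and a Rosa-lox-stop-lox-YFP reporter. YFP-positive neurons were isolated by FACS at E15.75 from embryos of C57/Bl6 mice, and each library was a pool of embryos of 1 genotype. The wild-type and heterozygous neurons carried the same Cre allele, recombination began only when Pitx3 came on, and a pool hides the spread between embryos.

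Dot1l methylates histone H3 at lysine 79, a residue in the globular core of the nucleosome, and no other enzyme with this activity is known in mammals. The mark lies along the first part of transcribed genes, and Dot1l reaches it with partners of the transcription elongation machinery such as Mllt1, Mllt3 and Mllt10. Midbrain dopamine neurons at this age are postmitotic and express the enzymes and transporters of dopamine handling under Nr4a2, Pitx3, Lmx1b, En1 and Foxa factors.

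The loxP sites flank exon 5 of Dot1l, which is the sequence that Cre removes and on which the genotype of every library turns. In transcript Dot1l-201 this is exon 5 of 28, at chr10:80771138-80771366 (GRCm38, plus strand), and it lies inside the coding sequence. It is shown 5′ to 3′ from the GENCODE transcript, all in lower case:

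Dot1l exon 5: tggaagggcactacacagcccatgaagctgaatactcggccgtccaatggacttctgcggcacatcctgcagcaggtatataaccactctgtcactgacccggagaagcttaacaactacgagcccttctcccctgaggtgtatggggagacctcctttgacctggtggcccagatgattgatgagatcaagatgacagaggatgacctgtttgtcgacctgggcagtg

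The exon holds 229 bases, which leaves a remainder of 1 when divided by 3, so that joining its neighbours changes the reading frame. It makes up 3.36% of the 6808 bases of the transcript. A count over the whole gene therefore hardly registers the deletion itself, and the deposited values do not resolve exons.

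At the level of the whole gene, Dot1l was measured at 75.5, 65.6 and 76.2 CPM (counts of a gene relative to the depth of its library, the scale of all levels below) in Dot1l(fl/+) and at 64.9 and 99.1 CPM in Dot1l(fl/fl). Dot1l(+/+) libraries lay at 105.2, 84.6 and 94.6 CPM. The first Dot1l(fl/fl) library sat just below every heterozygous one, whereas the library labelled Dot1l(fl/fl) 2 lay above all of them and inside the wild-type range, so that it gives no sign of a lower transcript level. The log2 fold change was 0.18 ± 0.15 (SE), with a 95% interval of −0.13 to 0.48 and an adjusted p of 0.998 in edgeR's quasi-likelihood test. Leaving out the library labelled Dot1l(fl/fl) 2 gave −0.16. The gene-level count thus neither checks nor contradicts excision, and several values below are also given without a Dot1l(fl/fl) library.

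**Figure D1:**
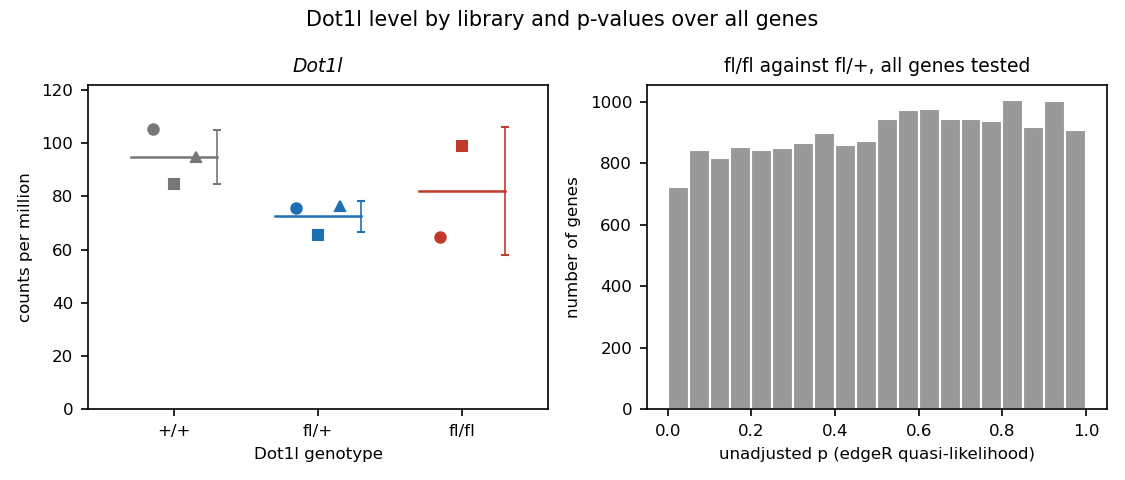
Dot1l level in each of the 8 libraries (left, CPM; symbols are libraries, lines are group means and bars 1 SD) and the number of genes by unadjusted p in steps of 0.05 for Dot1l(fl/fl) against Dot1l(fl/+) (right). The 2 Dot1l(fl/fl) libraries lie at 64.9 and 99.1 CPM, on either side of the heterozygous libraries, and the step nearest 0 holds 723 genes against 842 in the next.

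The libraries held between 13616922 and 43674673 counts, and both Dot1l(fl/fl) libraries were the shallowest, at 18298340 and 13616922. Counts of the 4 replicate pairs within Dot1l(fl/+) and within Dot1l(fl/fl) differed well beyond sampling noise (chi-square per degree of freedom of 17.87 to 20.86). The share of counts on the mitochondrial chromosome ran from 1.08% to 1.389% over all 8. Dopaminergic identity was clear in all of them: Th was at 649.5 CPM or higher and Slc6a3 at 607 CPM or higher in each library.

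No gene passed an adjusted p of 0.05 among the 17988 genes tested with edgeR's quasi-likelihood test (percent called 0), and the smallest adjusted p was 0.717. An unadjusted p under 0.05 was reached by 723 genes (4.02% of those tested), 334 higher (1.86%) and 389 lower (2.16%) in Dot1l(fl/fl). That share is no larger than the threshold itself. DESeq2 called 1 gene at an adjusted p under 0.05 when all 3 genotypes were fitted, Kctd12, and 2 when the 2 genotypes were fitted alone, Kctd12 among them, all lower in Dot1l(fl/fl). According to the study's methods, embryos of the different genotypes were taken as sets from the same mothers, but the labels do not say whether replicate numbers mark those sets. With the replicate number as a block, edgeR called 4 genes, Lars2, 1500015A07Rik, Aldh1a1 and Gm15564, all lower in Dot1l(fl/fl). When gene length and GC content were corrected for, 746 genes had an unadjusted p under 0.05, but only 162 of them were higher and 584 lower. The share of higher genes went from 46.2% to 21.7%, and the median log2 fold change over all genes from 0.001 to −0.07. The split between higher and lower genes thus depended on this correction.

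The size of what could be seen was limited, with 2 Dot1l(fl/fl) libraries. The median SE of a log2 fold change was 0.24 over all genes and 0.16 over the 9966 genes with at least 10 CPM. Library values of the 2 genotypes did not overlap for 3586 genes (19.9%), 1864 with both Dot1l(fl/fl) libraries above all heterozygous ones (10.4%) and 1722 with both below (9.57%). The 2 Dot1l(fl/fl) libraries also led to different genes. Without the first, 7 genes passed an adjusted p of 0.05, namely Aldh1a1, Th, Yam1, Lars2, Syt17 and Chrna6 lower and Btg2 higher. Without the second, 7 others passed, namely Lhx9, Evx2, Lhx2, Hmgn2, Pitx1 and Gli3 lower and Rps19 higher. In both cases the lone library was assumed to vary like the other groups. Lists are therefore given below by their medians in these fits, where the median of all genes was −0.020. Without Dot1l(fl/+) 1, 2 and 3 in turn, 311, 271 and 437 genes were higher at an unadjusted edgeR p under 0.05. In those fits 249, 264 and 405 genes were lower, of 17733, 17748 and 17762 tested. Counts of list members without a heterozygous library are given below against these.

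**Figure D2:**
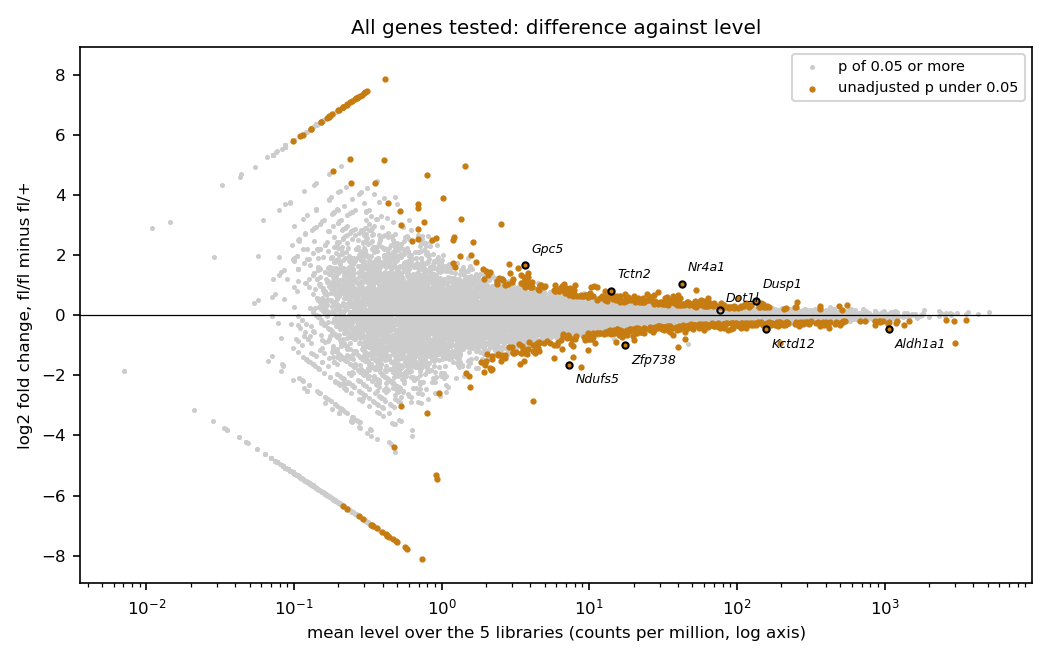
Log2 fold change of Dot1l(fl/fl) minus Dot1l(fl/+) against the mean level over the 5 libraries (CPM, log axis) for the 17988 genes tested. Each point is a gene, orange where the unadjusted p is under 0.05, and circled genes are named in the text; the spread narrows as the level goes up, and slanted lines of points at low level are genes at 0 in all libraries of 1 genotype.

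The genes with the smallest p among those of at least 1 CPM were led by Ndufs5, a subunit of respiratory complex I. It was at 11.1, 7.66 and 11.2 CPM in Dot1l(fl/+) and at 2.62 and 3.82 CPM in Dot1l(fl/fl), with 6.72 to 11.5 CPM in Dot1l(+/+). Both Dot1l(fl/fl) values lay below all others, for a log2 fold change of −1.64 ± 0.34 and an edgeR adjusted p of 0.717 (unadjusted 6.98e-05). It stood alone among complex I genes in this size, as described below.

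Kctd12, an auxiliary subunit of GABA-B receptors, was the most even of the lower genes. It was measured at 179, 175 and 175 CPM in Dot1l(fl/+) and at 131 and 125 CPM in Dot1l(fl/fl), and the wild-type libraries lay between 191 and 196 CPM. The groups were well apart, the log2 fold change was −0.46 ± 0.10, and it stayed between −0.50 and −0.43 whichever library was left out (edgeR adjusted p of 0.717).

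Shisa9, an auxiliary subunit of AMPA receptors, was at 45.1, 44.1 and 40.8 CPM against 29.6 and 25.7 CPM in Dot1l(fl/fl) (log2 fold change −0.65 ± 0.16). Rhou, a small GTPase gene, was at 51.8, 47.1 and 54.2 CPM against 33.6 and 35.9 CPM (−0.56 ± 0.15). For both genes the Dot1l(+/+) libraries, at 42.1 to 48.2 and 50.7 to 55.5 CPM, sat with the heterozygous ones. Zfp738, a zinc finger gene, went from 24.5, 23.2 and 17.9 CPM to 12.9 and 8.78 CPM (−1.0 ± 0.25), and the wild-type libraries, down to 15.0 CPM, came close to the Dot1l(fl/fl) values. Hmgn2, which encodes a nucleosome-binding protein, was at 48.6, 51.6 and 60.4 CPM against 21.7 and 39.7 CPM (−0.81 ± 0.20). Of its Dot1l(fl/fl) libraries the second lay just below the lowest wild-type value of 41.1 CPM, and Hmgn2 has near-identical pseudogene copies that could share its reads. None of these had an edgeR adjusted p below 0.822.

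Among the higher genes with the smallest p, Cwc22, a splicing factor, was at 39.0, 47.1 and 34.1 CPM in Dot1l(fl/+) and at 59.4 and 83.2 CPM in Dot1l(fl/fl) (log2 fold change 0.83 ± 0.20), but its wild-type libraries reached 75.0 CPM and overlapped the Dot1l(fl/fl) values. Tctn2, a component of the ciliary transition zone, was at 9.64, 12.4 and 10.4 CPM against 19.4 and 18.8 CPM (0.82 ± 0.22). Gpc5, a heparan sulphate proteoglycan, was at 2.45, 1.65 and 1.83 CPM against 5.63 and 6.91 CPM (1.66 ± 0.45). For Tctn2 and Gpc5 both Dot1l(fl/fl) libraries also exceeded the wild-type range. The other higher genes chosen this way were Sema5b, Btg2, Dusp1, Nr4a1, Bdnf, Rgs4 and Rem2, all described with their groups below. Their edgeR adjusted p lay between 0.822 and 0.971.

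Ranked by size instead, among genes with an unadjusted p under 0.01, the list ran into low counts. Tuba1c, an alpha-tubulin, was at 10.1 CPM in the first Dot1l(fl/fl) library and at 0.576 CPM in the second, against 0.168 to 1.12 CPM in Dot1l(fl/+), so that its log2 fold change of 3.02 became −0.19 without the first. Rn7sk, the small nuclear RNA that holds the elongation kinase P-TEFb inactive, was at 16.9 CPM in the first heterozygous library and at or below 1.30 CPM in the other 4 of the 5, and its log2 fold change of −2.84 became −0.13 without it. Beside Gpc5 and Ndufs5, genes of this kind included Usp2 and Kctd8 higher, and Adamts4, Cd180 and Nts lower. Their libraries did not overlap between Dot1l(fl/fl) and Dot1l(fl/+), at levels below 10 CPM in every one of the 5. For Kctd8, Cd180 and Nts the wild-type libraries overlapped the Dot1l(fl/fl) ones, at 2.96 to 4.52, 1.35 to 3.49 and 1.35 to 4.70 CPM.

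Of the 23 gene groups, immediate early genes had the highest median log2 fold change. These are genes transcribed within minutes of depolarisation, growth factor signalling or stress, without new protein synthesis. All 30 listed genes were tested; 12 were higher at an unadjusted p under 0.05 and none was lower, where 1.86% and 2.16% of all genes did so. For 14 of 30 both Dot1l(fl/fl) libraries were above all heterozygous ones, against 10.4% of all genes, and 28 of 30 log2 fold changes were above 0, against 50.2% of all genes. Their median was 0.30, against 0.001 over all genes. The lists were chosen with earlier results of these data known, so these counts and this rank are descriptions.

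Nr4a1, an orphan nuclear receptor, had the largest log2 fold change of the 30. It was at 34.6, 31.8 and 22.2 CPM in Dot1l(fl/+) and at 50.7 and 71.6 CPM in Dot1l(fl/fl) (1.046 ± 0.271). The wild-type libraries, at 43.0, 50.4 and 17.7 CPM, were spread nearly as widely, although both Dot1l(fl/fl) values lay above them. Btg2, an antiproliferative transcriptional cofactor, was at 89.1, 92.8 and 72.4 CPM against 107.8 and 145 CPM (0.58 ± 0.14). Dusp1, a phosphatase that switches off MAP kinases, was at 128.7, 107.5 and 113.5 CPM against 161.4 and 165.5 CPM (0.49 ± 0.12). Both Dot1l(fl/fl) libraries exceeded all 6 others for Btg2 and Dusp1. Counts of Dusp1 carry the limit that the gene overlaps Ergic1 on the opposite strand, and whether the counting used strand was not given in the sources used here.

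The other members past the unadjusted threshold were the AP-1 genes Jun (0.30 ± 0.10), Junb (0.51 ± 0.19) and Fos (0.27 ± 0.11), the stress-induced factor Atf3 (0.81 ± 0.31), the zinc finger factor Klf6 (0.25 ± 0.12), the synaptic gene Arc (0.65 ± 0.30), the Btg2 paralog Btg1 (0.37 ± 0.14), and Gadd45b (0.89 ± 0.41) and Gadd45g (0.51 ± 0.23). Egr1 (−0.10 ± 0.18) and Ier3 (−0.49 ± 0.55) were the pair with a value below 0. Fosb (0.05 ± 0.14), Jund (0.06 ± 0.13) and Klf4 (0.12 ± 0.24) differed by less than their SE. Fos, the best known of the group, was at 248.4, 236.5 and 201.9 CPM in Dot1l(fl/+) and at 280.2 and 271 CPM in Dot1l(fl/fl), with wild-type libraries from 192.1 to 238.8 CPM.

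A score per library, the median over the 30 genes of log2 CPM minus the mean of the 5 libraries, was 0.005, −0.091 and −0.238 in Dot1l(fl/+) and 0.131 and 0.238 in Dot1l(fl/fl). The wild-type libraries scored −0.024, −0.023 and −0.361. The 2 genotypes were apart, but library 3 of each control genotype stood well below its group, and the spread within Dot1l(fl/+) was nearly as large as the distance between the group means. Without Dot1l(fl/fl) 1 the median log2 fold change was 0.352, and with the library labelled Dot1l(fl/fl) 2 left out it was 0.229. The number past the unadjusted threshold was 6 without Dot1l(fl/+) 3, where 437 of 17762 genes were higher. With the replicate block it was 7, where 323 of 17988 genes were higher. With counts thinned to the smallest total it was 10, where 339 of 16083 genes were higher. With the length and GC correction it was 4, where 162 of 17988 genes were higher, at a median of 0.20 against −0.07 over all genes. With the block and this correction together, 2 were higher and 1 was lower, where 147 and 856 of 17988 genes were. In that fit 20 of 30 values were above 0. The median was then 0.088 against −0.098 over all genes. Lower depth went with Dot1l(fl/fl), and its part in these values beyond the thinned fit was not tested.

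**Figure D3:**
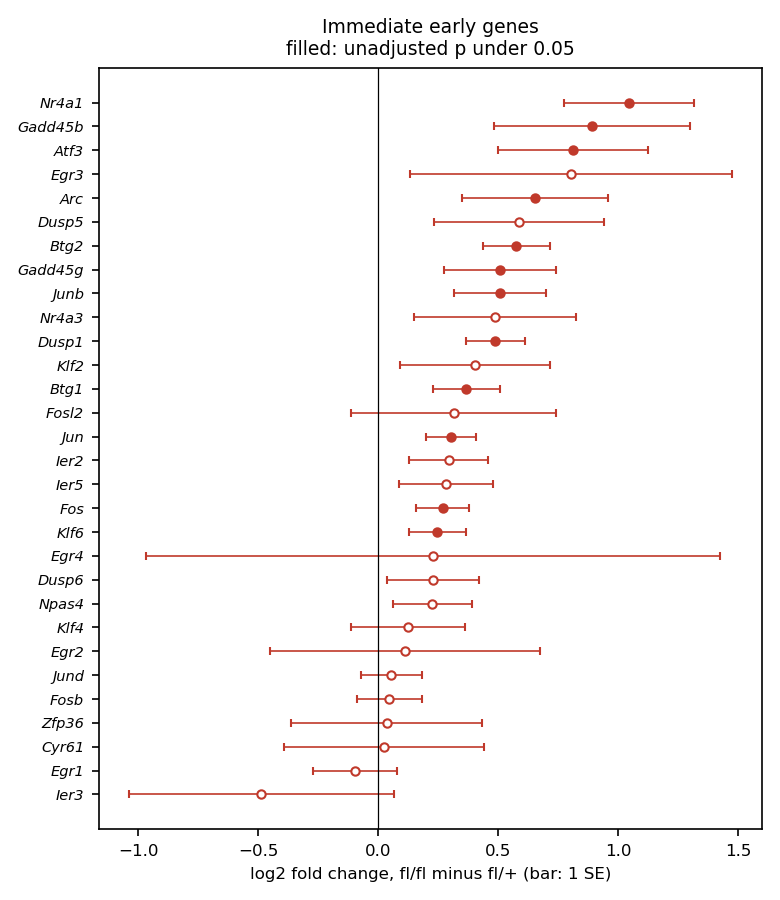
Log2 fold change of Dot1l(fl/fl) minus Dot1l(fl/+) for the 30 immediate early genes, ordered by value, with bars of 1 SE. Filled points are the 12 genes with an unadjusted p under 0.05, all to the right of 0; Nr4a1 lies farthest right and Ier3 farthest left.

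Promoter sequence was available for 25 of the 30 immediate early genes, as RefSeq windows of 300 bases on GRCm38 from 250 before to 50 after each start. The cyclic AMP response element TGACGTCA, bound by CREB family factors, was searched on both strands together with its shorter form TGACG, which overlaps it and reads CGTCA on the other strand. The 25 genes had 29 windows, since Egr2 had several, some of them overlapping. The full element lay in 2 of the 29 (6.9%), those of Btg2 and Dusp1, and in 1.79% of all 32851 windows of the same length. The short form lay in 17 of the 29 (58.6%), from 15 genes, and in 20.8% of all windows. The CArG box, the binding sequence of serum response factor, lay in 6 of the 29 (20.7%), from 3 genes, and in 1.63% of all windows. TGANTCA, the AP-1 sequence, lay in none of the 29 and in 7.81% of all windows. The stretches that hold the matches before the start are shown for the 3 members with the smallest p, 5′ to 3′ on the strand of the gene, with TGACG, TGACGTCA or CGTCA in capitals; they are at chr1:134079294-134079341 (minus strand), chr17:26508588-26508683 (minus strand) and chr15:101266596-101266830 (plus strand).

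Btg2: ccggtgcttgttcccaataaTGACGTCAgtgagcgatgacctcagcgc

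Dusp1: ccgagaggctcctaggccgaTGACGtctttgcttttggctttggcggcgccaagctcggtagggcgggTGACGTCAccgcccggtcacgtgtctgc

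Nr4a1: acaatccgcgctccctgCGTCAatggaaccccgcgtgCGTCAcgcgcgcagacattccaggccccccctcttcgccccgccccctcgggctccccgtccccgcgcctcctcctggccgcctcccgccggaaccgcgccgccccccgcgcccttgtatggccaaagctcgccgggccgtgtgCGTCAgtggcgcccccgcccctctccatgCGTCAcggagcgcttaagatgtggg

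Nr4a1 holds 4 copies of the short form in this stretch and Dusp1 holds 1 beside its full element. These are matches of letters only, and no binding was measured.

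Bdnf, Vgf, Rgs4 and Rem2 were among the higher genes past the unadjusted threshold. Bdnf, a neurotrophin, was at 19.9, 23.4 and 16.0 CPM in Dot1l(fl/+) and at 31.6 and 33.0 CPM in Dot1l(fl/fl) (log2 fold change 0.71 ± 0.20). Vgf, a neurosecretory protein, was at 50.1, 58.7 and 52.8 CPM against 74.6 and 76.4 CPM (0.49 ± 0.15). Both Dot1l(fl/fl) libraries exceeded all wild-type ones for these 2 genes. Rgs4, which accelerates the GTPase of Gi and Gq proteins, was at 21.5, 24.0 and 22.4 CPM against 32.9 and 44.6 CPM (0.77 ± 0.19), and Rem2, a small GTPase that restrains calcium channels, at 55.2, 53.5 and 50.3 CPM against 67.9 and 89.8 CPM (0.57 ± 0.14). In the whole list of neuropeptides and granins, 3 of 32 tested genes were higher (Bdnf, Vgf and Scg5) and 2 lower (Nts and Vip) at the unadjusted threshold (1.86% and 2.16% of all genes), 12 of 32 values were above 0, and the median was −0.02.

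Genes of dopamine synthesis and handling had values in both directions. Of 15 genes, 3 were lower and 1 was higher at an unadjusted p under 0.05 (2.16% and 1.86% of all genes). Ddc and Th were among the lower ones and Sncg was the higher one. The list median was 0.02. That median was −0.211 without Dot1l(fl/fl) 1 and 0.065 with the second Dot1l(fl/fl) library left out. Th, the rate-limiting enzyme of dopamine synthesis, was at 940.6, 965.3 and 915.2 CPM in Dot1l(fl/+) and at 860.3 and 649.5 CPM in Dot1l(fl/fl), with 951.7 to 1047 CPM in Dot1l(+/+). Both Dot1l(fl/fl) libraries lay below the other 6, but unequally, for a log2 fold change of −0.32 ± 0.10 (edgeR adjusted p of 0.998). Leaving out Dot1l(fl/fl) 1 gave −0.54, and leaving out the library labelled Dot1l(fl/fl) 2 gave −0.13. Ddc, which turns L-DOPA into dopamine, was at 1080, 1236 and 1081 CPM against 1004 and 838 CPM (−0.30 ± 0.09). The autoreceptor gene Drd2 had a value of −0.33 ± 0.16.

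The transporters did not separate. Slc18a2, which loads dopamine into vesicles, was at 485, 448 and 338 CPM in Dot1l(fl/+) and at 353 and 400 CPM in Dot1l(fl/fl) (−0.17 ± 0.13), inside the heterozygous range. Slc6a3, the plasma membrane dopamine transporter, was at 750, 719 and 680 CPM against 826 and 622 CPM, where the first Dot1l(fl/fl) library was the highest of the 5 and the second the lowest. Its log2 fold change was 0.02 ± 0.11, with a 95% interval of −0.21 to 0.24. Sncg, gamma-synuclein, was at 2.35, 1.86 and 2.81 CPM against 5.69 and 6.62 CPM (1.39 ± 0.47), a low level next to the genes above.

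Transcription factors of midbrain dopamine neurons were lower on balance. Of 22 genes, 5 were lower and none higher at an unadjusted p under 0.05 (2.16% and 1.86% of all genes), 5 of 22 log2 fold changes were above 0, and the median was −0.10. En1, En2, Bnc2 and Otx2 were among them. En1, a homeodomain factor needed for survival of these neurons, was at 433, 437 and 475 CPM in Dot1l(fl/+) and at 401 and 332 CPM in Dot1l(fl/fl) (−0.29 ± 0.10). Its paralog En2 was at 384.2, 381.7 and 357.8 CPM against 326.9 and 316.2 CPM (−0.22 ± 0.09), and for both genes all wild-type libraries lay above the Dot1l(fl/fl) ones. Bnc2 had a value of −0.44 ± 0.17 and Otx2 of −0.30 ± 0.14.

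The factors that define the lineage most closely were less apart. Nr4a2, the nuclear receptor that drives the dopaminergic programme, was at 639, 650 and 543 CPM in Dot1l(fl/+) and at 524 and 549 CPM in Dot1l(fl/fl) (−0.19 ± 0.09, unadjusted edgeR p of 0.0538, adjusted p of 0.998), so that the groups overlapped. Pitx3 was at 210, 210 and 227 CPM against 237 and 192 CPM, with a 95% interval of −0.24 to 0.24, and the Cre insertion at this locus was shared by all groups. Lmx1b (0.01 ± 0.11), Foxa1 (−0.14 ± 0.11) and Foxa2 (−0.04 ± 0.11) did not pass the unadjusted threshold either. The list score was 0.101, 0.113 and 0.002 in Dot1l(fl/+) and −0.078 and −0.054 in Dot1l(fl/fl), apart from each other. The list median was −0.121 when Dot1l(fl/fl) 1 was left out and −0.153 when the second Dot1l(fl/fl) library was. Lower genes past the threshold numbered 3, 2 and 7 without Dot1l(fl/+) 1, 2 and 3 in turn. Over all genes 249, 264 and 405 were lower in those fits.

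Markers of dopamine neuron subsets were likewise lower on balance, with 6 of 25 lower and none higher at the unadjusted threshold (2.16% and 1.86% of all genes) and a median of −0.14. Aldh1a1, a retinaldehyde dehydrogenase of the ventral substantia nigra subset, was at 1296, 1125 and 1178 CPM in Dot1l(fl/+) and at 1039 and 688 CPM in Dot1l(fl/fl) (−0.47 ± 0.13, edgeR adjusted p of 0.925). The wild-type libraries, at 974.6 to 1314 CPM, reached below the first Dot1l(fl/fl) library, and the value ranged from −0.81 to −0.21 as single libraries were left out. Chrna6, a nicotinic receptor subunit typical of these neurons, was at 448, 523 and 438 CPM against 391 and 304 CPM (−0.43 ± 0.11), and its partner subunit Chrnb3 had a value of −0.51 ± 0.17. The others past the threshold were Slc10a4, a vesicular transporter (−0.35 ± 0.16), Otx2, which also belongs to the transcription factors, and Vip, below 10 CPM.

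Of the other subset markers, Cck, Calb2 and Kcnj6 overlapped between the genotypes. Cck, a neuropeptide gene, was at 126, 134 and 118 CPM against 143 and 122 CPM (0.07 ± 0.13), and Calb2, which encodes calretinin, at 115, 102 and 110 CPM against 136 and 103 CPM (0.13 ± 0.13). Kcnj6, the GIRK2 channel, was at 28.6, 15.3 and 20.5 CPM against 20.8 and 19.4 CPM (−0.09 ± 0.23). With the length and GC correction Cck was at −0.09 and Calb2 at −0.02, where the median of all genes was −0.07. Rspo2, a secreted enhancer of Wnt signalling, was at 6.99, 3.73 and 5.97 CPM against 8.80 and 7.05 CPM (0.51 ± 0.35, edgeR adjusted p of 0.998), so that both Dot1l(fl/fl) libraries lay above the heterozygous ones at levels below 10 CPM. Without the library labelled Dot1l(fl/fl) 2, 2 subset markers were lower and 1 higher at the threshold; without Dot1l(fl/fl) 1, 7 were lower.

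**Figure D4:**
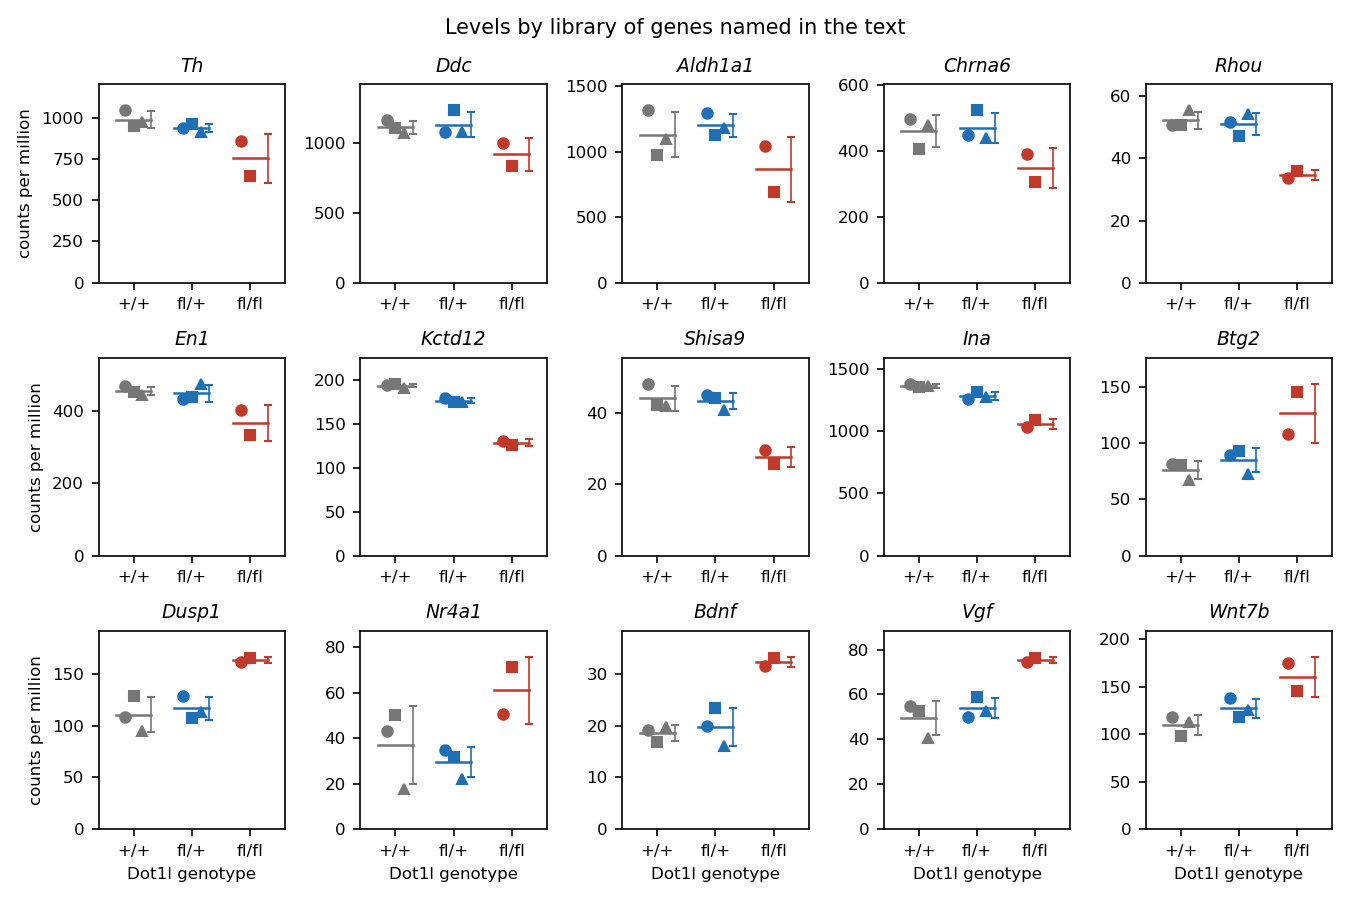
Levels of 15 genes described in the text in each library (CPM, axes from 0; symbols are replicates 1, 2 and 3, lines are group means and bars 1 SD). In Dot1l(fl/fl), Kctd12, Rhou, Shisa9 and Ina lie below all other libraries with little spread, Th, Ddc, Aldh1a1 and Chrna6 are spread between their 2 libraries, and Dusp1, Bdnf and Vgf lie above all others.

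Respiratory chain and translation genes had small positive medians. Of 37 complex I genes, 24 had a log2 fold change above 0, and of 42 genes of complexes II to V, 35 did, against 50.2% of all genes. The medians were 0.06 and 0.12, and with the length and GC correction they lay −0.005 and 0.045 from the median of all genes. The unadjusted threshold was passed by 2 higher complex I genes, Ndufa1 (0.38 ± 0.15) and Ndufa2 (0.37 ± 0.16), and 1 lower, Ndufs5. Over all genes 1.86% were higher and 2.16% lower at this threshold. Ndufa1 was at 41.6, 38.5 and 47.4 CPM in Dot1l(fl/+) and at 55.0 and 55.4 CPM in Dot1l(fl/fl), and Ndufa2 at 38.6, 37.4 and 41.9 CPM against 49.2 and 52.3 CPM. No gene of complexes II to V passed, in either direction, but without the library labelled Dot1l(fl/fl) 2 there were 6 higher and 1 lower, and without Dot1l(fl/+) 3 there were 4 higher. The 8 tested of 13 listed genes of the mitochondrial genome had none past the threshold either (median 0.04). With the length and GC correction 5 of the 8 were lower, and 6 with the replicate block added, at medians −0.19 and −0.26 from those of all genes. Of 17988 genes, 584 and 856 were lower in these fits.

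The library scores show what these medians rest on. For complexes II to V they were −0.083, −0.143 and 0.065 in Dot1l(fl/+) and 0.085 and 0.056 in Dot1l(fl/fl), so that Dot1l(fl/+) 3 lay with the Dot1l(fl/fl) ones and the groups overlapped. The same library sat with Dot1l(fl/fl) for complex I, the cytosolic ribosome, the mitochondrial ribosome and the proteasome. At the threshold, 1.86% of all genes were higher and 2.16% lower. Of 78 mitochondrial ribosome genes 2 were higher and 3 lower (median 0.07). Of 79 cytosolic ribosome genes 5 were higher and 1 lower (median 0.11, or 0.108 without Dot1l(fl/fl) 1 and 0.086 without the second). Of 33 proteasome genes 1 was higher, Psmb5 (0.48 ± 0.17), and none lower (median 0.075). With the length and GC correction the medians of these 3 lists lay 0.017, 0.022 and 0.022 above the median of all genes. Ribosomal protein genes have many near-identical pseudogene copies, and their values, such as 0.68 ± 0.21 for Rps19 and −0.31 ± 0.10 for Rplp0, are uncertain for that reason. Mitochondrial morphology and maintenance genes stayed near 0 (48 genes, median 0.009, Rhot1 higher and Mief1 lower at the threshold).

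Among 39 genes of the axonal cytoskeleton, 6 were lower and none higher at an unadjusted p under 0.05 (2.16% and 1.86% of all genes), and the median was −0.06. Ina, the neuronal intermediate filament alpha-internexin, was at 1256, 1314 and 1274 CPM in Dot1l(fl/+), at 1031 and 1086 CPM in Dot1l(fl/fl) and at 1352 to 1380 CPM in Dot1l(+/+), so that each genotype occupied a range of its own (−0.28 ± 0.07). Myh10, a non-muscle myosin, was at 422, 417 and 361 CPM against 314 and 313 CPM (−0.35 ± 0.11). Stmn1, which destabilises microtubules, had a value of −0.32 ± 0.11, and Mapt, Map1b and Kif1a lay between −0.20 and −0.16. Tubb3 (0.09 ± 0.08) and Stmn2 (−0.02 ± 0.07), among the most abundant transcripts, did not separate. The count depended on single libraries: without the library labelled Dot1l(fl/fl) 2 it held 8 higher and 7 lower genes, and without Dot1l(fl/+) 2 it held 3 lower.

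Transmitter receptor genes had 6 of 52 lower, Kctd12, Chrna6, Chrnb3, Grik3, Grin2d and the barely detected Glra1, and 1 higher, Kctd8 (median −0.08), where 2.16% of all genes were lower and 1.86% higher. Leaving out Dot1l(fl/fl) 1 gave a median of −0.120, and leaving out the second gave −0.107. Voltage-gated channel genes had 2 of 52 lower, Kcnip4 (−0.36 ± 0.12) among them, and none higher, and 21 of 52 values were above 0 (median −0.06). Without Dot1l(fl/fl) 1 the channel genes had 29 values above 0 and a median of 0.020. Synaptic vesicle release genes had 3 of 40 lower, Sv2c (−0.50 ± 0.19), Cplx2 (−0.32 ± 0.14) and Unc13b (−0.28 ± 0.12), and none higher, with a median of −0.06. Their median was −0.125 with Dot1l(fl/fl) 1 left out and −0.016 with the second left out. Without Dot1l(fl/+) 1 or Dot1l(fl/+) 2 no vesicle release gene was lower. Of 37 postsynaptic and adhesion genes, Nlgn3 alone was lower (−0.32 ± 0.14). Kcnip4, which modulates A-type potassium channels, was at 84.7, 87.5 and 87.0 CPM against 69.6 and 65.4 CPM, and both Dot1l(fl/fl) libraries lay below all 6 others.

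Axon guidance genes had 1 of 52 higher and 2 lower (1.86% and 2.16% of all genes), with 13 values above 0 and a median of −0.08. Without Dot1l(fl/fl) 1 the median was −0.105, and without Dot1l(fl/+) 1 there were 3 higher and none lower. Sema5b, a transmembrane semaphorin, was at 51.1, 54.9 and 50.6 CPM in Dot1l(fl/+) and at 68.3 and 76.7 CPM in Dot1l(fl/fl) (0.47 ± 0.13), where the wild-type libraries, at 63.0 to 66.5 CPM, came between the other genotypes. Its counts carry the limit that it overlaps an expressed processed pseudogene, Gm5963, on the opposite strand. Ntn1, the guidance cue netrin 1, was at 1175, 1126 and 1108 CPM against 1091 and 861 CPM (−0.22 ± 0.10), and Sema3d was below 10 CPM.

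Among 65 tested Wnt signalling genes, 3 were higher and 3 lower at the unadjusted threshold (1.86% and 2.16% of all genes), and the median was −0.02. Wnt7b, a ligand, was at 138, 118 and 125 CPM in Dot1l(fl/+) and at 176 and 146 CPM in Dot1l(fl/fl), above the 98.3 to 118 CPM of Dot1l(+/+) (0.34 ± 0.12, edgeR adjusted p of 0.998). Wnt7a, its close relative, was at 17.6 to 18.1 CPM against 34.7 and 18.4 CPM (0.57 ± 0.23), and rested on the first library, since its value was 0.03 without it. Wnt5a, a ligand of the non-canonical pathway, was at 211, 209 and 198 CPM against 184 and 166 CPM (−0.24 ± 0.11), and Bcl9l, a coactivator of beta-catenin, had a value of −0.33 ± 0.15. The others were Wif1, higher, and Apc2, lower. The list median was −0.007 without Dot1l(fl/fl) 1 and −0.146 with the second left out. Without Dot1l(fl/+) 1 or Dot1l(fl/+) 2 a single gene was lower.

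Stress response genes under ATF4 and the endoplasmic reticulum had 4 of 39 higher and none lower at the threshold (1.86% and 2.16% of all genes). The 4 were Ppp1r15a (0.45 ± 0.17), Herpud1 (0.36 ± 0.15), Dnajb9 (0.38 ± 0.17) and Ddit4 (0.30 ± 0.14). The list median was 0.10, which was 0.097 above that of all genes. With the length and GC correction it lay 0.063 above that of all genes, and no gene passed. The median was 0.059 without Dot1l(fl/fl) 1 and 0.141 with the second left out. The count was 2 higher with any 1 of the Dot1l(fl/+) libraries left out. Ppp1r15a, which restores translation after stress and is itself rapidly induced, was at 45.7, 42.7 and 34.5 CPM against 55.1 and 56.5 CPM.

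Partners of Dot1l and other genes of histone H3 lysine 79 methylation and elongation showed no gene past the threshold in either direction among 30 tested (median −0.003), but 2 were higher without Dot1l(fl/fl) 1 and 4 were lower without the library labelled Dot1l(fl/fl) 2. Mllt3 had a value of −0.13 ± 0.12 and Mllt10 of 0.20 ± 0.17. Imprinted genes had 2 of 30 higher, Zdbf2 and H19, and 1 lower, Mirg (median −0.02), where 1.86% of all genes were higher and 2.16% lower. Cell cycle genes had 1 of 37 higher, the inhibitor Cdkn1a, at 42.3, 53.2 and 49.2 CPM against 76.2 and 58.3 CPM (0.48 ± 0.16), and 2 lower, Bub1 and Ccnd1, both at or below 6.01 CPM; the list median was −0.17 at low levels.

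**Figure D5:**
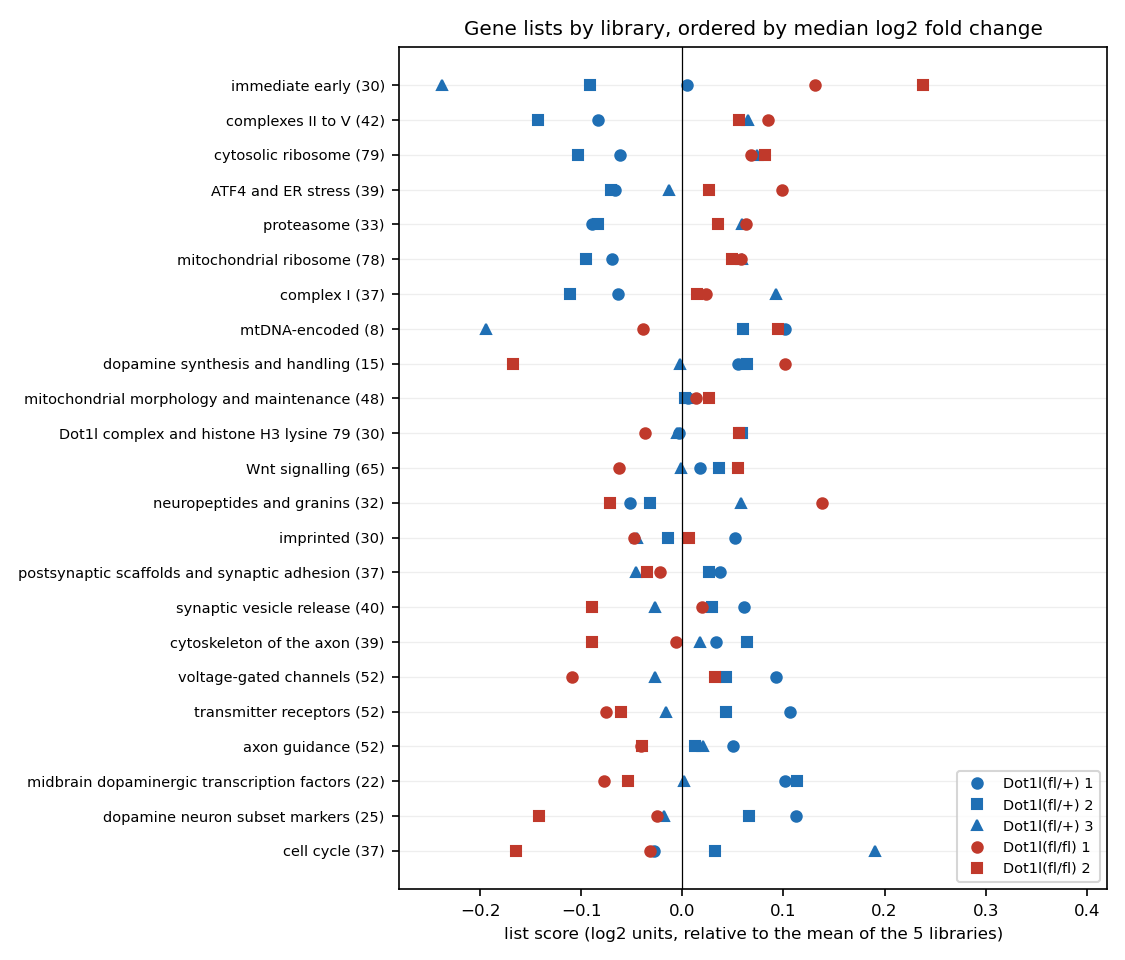
Score of each of the 23 gene lists in the 5 libraries (log2 units; the median over list members of log2 CPM minus the mean of the 5 libraries; number of genes tested in brackets), ordered by median log2 fold change. The immediate early genes have the widest gap between genotypes, with 0.131 and 0.238 in Dot1l(fl/fl) against at most 0.005 in Dot1l(fl/+), and for the ribosome, proteasome and respiratory lists Dot1l(fl/+) 3 lies with Dot1l(fl/fl).

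Markers of other cells that the sort could hold were given beside these values. Summed over 14 GABAergic markers the level was 331.9 to 376.1 CPM in Dot1l(fl/+) and 390.8 and 363.9 CPM in Dot1l(fl/fl), and 1 gene was higher at the threshold, Slc32a1 (0.35 ± 0.11), while 5 of the 14 values were above 0 and the median was −0.15. Radial glia and progenitor markers summed to 595.8 to 635.5 CPM and to 655.7 and 613.5 CPM. Of 16 tested, 3 were higher, Glul (0.32 ± 0.11), Id3 (0.89 ± 0.39) and Sox9 (0.94 ± 0.43), and none lower. Of these 16 values 9 were above 0, the lowest was −0.390 and the median 0.14. Microglial markers summed to 114.4 to 161.5 CPM and to 161.7 and 144.5 CPM, with 1 of 12 higher, C1qa (0.54 ± 0.24), and none lower. Of these 12 values 7 were above 0, the lowest was −0.355 and the median 0.10. Over all genes 1.86% were higher and 2.16% lower at the threshold, and 50.2% of values were above 0. Blood cell markers summed to 11.95 to 19.35 CPM and to 17.05 and 40.89 CPM, and the last value held 6.62 CPM of embryonic globin Hbb-y in the library labelled Dot1l(fl/fl) 2. Of 7 tested, 1 was higher, Hbb-y (4.98 ± 1.78), and none lower. Of these 7 values 6 were above 0, the lowest was −0.342 and the median 0.63. The part of these other cells in the differences above was not tested.

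The remaining marker lists had no gene past the unadjusted threshold. Their sums were 9.173 to 25.3 CPM in Dot1l(fl/+) and 17.93 and 15.41 CPM in Dot1l(fl/fl) for endothelium and pericytes, 47.87 to 58.45 and 61.77 and 56.8 CPM for the oligodendrocyte lineage, 279.9 to 298.1 and 263.5 and 311.2 CPM for glutamatergic and red nucleus neurons, and 14.15 to 18.87 and 15.96 and 19.01 CPM for serotonergic neurons. Motor neuron and muscle or lens markers summed to at most 10.28 CPM in any library, with no count of 4 of 9 and 2 of 11 markers. The list of chromosome Y and X inactivation genes summed to 150.9 to 424.1 CPM in Dot1l(fl/+) and to 377.8 and 177.9 CPM in Dot1l(fl/fl). Dot1l(+/+) libraries summed to 1168, 483.1 and 167.5 CPM. The list adds genes that mark either sex, so its sum does not give the mix of sexes in a pool. In pooled neurons, fewer cells of a type and less RNA per cell cannot be told apart.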

How the data were processed

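The authors sorted YFP-positive neurons, made directional libraries (NEBNext Ultra Directional), sequenced them on a NextSeq and mapped reads to GRCm38.p4. Bcl2fastq 2.17, Trimmomatic 0.30 and DESeq2 1.10.1 are named in the submitters' processing notes, while the aligner, the counter and its strand setting were not given in the sources used here. The deposited values are raw read counts per Ensembl gene and library, for 47729 genes, with no normalisation. Gene symbols came from the symbol column of a deposited annotated table, and for 2806 of 2881 genes without one from GENCODE M21 (98.9% of IDs matched). The other columns of the 3 deposited annotated tables hold the authors' own comparisons of genotypes and were not used. The third labelled Dot1l(fl/fl) sample was not analysed here.

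Counts of 8 libraries (3, 3 and 2 per genotype) were filtered with filterByExpr, scaled by TMM and fitted with edgeR 4.0.16 in R 4.3.3, with genotype as the only term. Dot1l(fl/fl) minus Dot1l(fl/+) was tested with the quasi-likelihood F test, adjusted by Benjamini-Hochberg over 17988 genes. The SE is the log2 fold change divided by the root of F. CPM used TMM-scaled totals. P-values measure the spread between pools of embryos. The test was tried on counts simulated from these libraries. In that trial, changes were put only into genes above a minimum mean count, so the rates do not cover genes of low count. Of genes changed 1.25-, 1.5-, 2- and 3-fold, 10%, 30%, 64% and 70% were called at an adjusted p under 0.05. So were 8 of 16872 unchanged genes. Alternatives were other size factors (RLE), no filter, a higher filter (mean count of 50 or more), DESeq2 1.42.0 with 3 or 2 genotypes, the 2 genotypes alone, a replicate block, an offset for gene length and GC content, both together, thinned counts, and each library left out. The genotypes, the 34 gene lists (23 gene groups and 11 sets of cell markers) and the study's 13 genes of interest were chosen with earlier results of these data known, and their counts are descriptions. Named genes were those 13, the 10 higher and 10 lower with the smallest p at a mean of at least 1 CPM, the 5 in each direction with the largest change among those with p under 0.01, and up to 2 per list and direction with p under 0.05; unnamed models were passed over. Other list members past the threshold, or chosen after their values were seen to show the range of a list, are also given. A few genes that met these rules are not reported here.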

Additional observations from a re-analysis of the deposited data

How the results depend on the processing

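The number of genes with an adjusted p under 0.05, 0 in the reported fit, was 14 with no filter, 1 and 2 with DESeq2 (3 genotypes and 2 genotypes), 4 with the replicate block (Lars2, 1500015A07Rik, Aldh1a1 and Gm15564, all lower) and 12 with the block and the length and GC offset, and 0 to 7 as single libraries were left out. Genes with an unadjusted p under 0.05, 723, numbered 535 to 1107 as libraries were left out, most without Dot1l(fl/fl) 2 (1107) and Dot1l(fl/fl) 1 (1052), and 1003 with block and offset; 323 and 339 of the 723 were shared with the fits without Dot1l(fl/fl) 1 and 2. Same-numbered libraries of the 2 genotypes had correlations of deviations of −0.0318 and −0.0144; with 2 Dot1l(fl/fl) libraries these mirror the other pairing by construction, so whether numbers mark the sets of embryos remains unknown. Of 80 named genes, 72 kept their sign in all 18 alternatives. Most of the 80 were chosen for a small p in these same libraries, which favours a kept sign. The 8 that changed sign were Dot1l, Slc6a3, Pitx3, Kcnj6, Cck, Calb2, Tuba1c and Zdbf2. All but Tuba1c and Zdbf2 were among the study's genes of interest, which were taken whatever they showed. The length and GC offset, alone and with the replicate block, shifted the median of all genes to −0.072 and −0.098, and gave values of Slc6a3 (−0.086, −0.186), Cck (−0.092, −0.216), Calb2 (−0.016, −0.113) and medians of ATF4 and ER stress (−0.009, −0.035) and mitochondrial morphology (−0.054, −0.075), which lay 0.063 (both) and 0.017 and 0.023 above those of all genes; the block alone gave Slc6a3 (−0.048) and Cck (−0.006). The offset also lowered the medians of complex I (−0.076, −0.141), complexes II to V (−0.027, −0.090), mtDNA-encoded genes (−0.259, −0.355), mitochondrial ribosome (−0.054, −0.095), cytosolic ribosome (−0.049, −0.116), proteasome (−0.049, −0.073), neuropeptides (−0.127, −0.187), Dot1l partners (−0.074, −0.105), axonal cytoskeleton (−0.108, −0.143) and transcription factors (−0.206, −0.310), and with the block those of subset markers (−0.244), dopamine synthesis (−0.186), immediate early (0.088), imprinted (−0.069), postsynaptic (−0.088) and vesicle release (−0.122) genes; axon guidance was −0.041 with the block alone. Leaving out single libraries gave −0.159 to 0.445 for Dot1l, −0.211 to 0.206 for Slc6a3, −0.171 to 0.139 for Pitx3, −0.289 to 0.167 for Kcnj6, −0.059 to 0.179 for Cck, −0.089 to 0.315 for Calb2, −0.188 to 3.937 for Tuba1c and −0.108 to 0.699 for Zdbf2, and list medians of 0.024 to 0.141 (ATF4 and ER stress), −0.055 to 0.027 (Dot1l partners), −0.146 to 0.005 (Wnt), −0.105 to −0.075 (axon guidance), −0.096 to −0.016 (axonal cytoskeleton), −0.211 to 0.065 (dopamine synthesis), −0.153 to −0.098 (transcription factors), −0.011 to 0.035 (mitochondrial morphology), −0.097 to 0.089 (neuropeptides), −0.125 to −0.016 (vesicle release) and −0.106 to 0.020 (voltage-gated channels). The cause was not tested. The median SE of 0.244 (log2) sets the precision, with 2 Dot1l(fl/fl) pools.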
